A study of Caenorhabditis elegans with 6 samples.

Results

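Fatty acids are broken down only after they have been joined to coenzyme A, and the 55 genes described here encode the enzymes of that activation and of the oxidation that follows. They were taken from the deposited table by name, as every gene whose symbol begins with acs-, acdh-, ech-, hacd-, acox-, cpt- or kat-, together with daf-22, dhs-28 and maoc-1. These 55 genes were among 46254 listed with a value (0 included) for every library (the rule itself uses names alone, and the set was proposed with earlier results of these data known). Acyl-CoA synthetases (acs) activate the fatty acid, and carnitine palmitoyltransferases (cpt) pass long chains through a carnitine ester into mitochondria. Acyl-CoA dehydrogenases (acdh) or, in peroxisomes, acyl-CoA oxidases (acox) then introduce a carbon-carbon double bond, enoyl-CoA hydratases (ech, maoc-1) add water, hydroxyacyl-CoA dehydrogenases (hacd-1, dhs-28) oxidise the product, and thiolases (kat-1, daf-22) release a shortened acyl-CoA. In the worm much fat is stored and burned in the intestine, and the peroxisomal enzymes also shorten the side chains of ascarosides, the pheromones that control entry into the dauer stage.

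The RNA came from whole Caenorhabditis elegans of the strain CF512, collected on day 1 of adulthood. The worms were grown from eggs for 48 h on RNAi bacteria at 25 °C, a temperature that makes this strain sterile. There were 3 groups of 2 libraries, 1 fed bacteria carrying the empty vector, 1 given RNAi against daf-2, which encodes the insulin/IGF-1 receptor, and 1 given RNAi against cav-1, which encodes a caveolin. The empty vector worms are the group the titles call untreated. All groups thus shared the strain, the temperature and the feeding on RNAi bacteria, and each of the 2 repeats held 1 library of every group. Worms were pooled in each library, and feeding RNAi lowers a transcript without removing the gene. The series title states the purpose as comparing expression between treated and untreated worms.

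Total counts ran from 25474328 to 32886440 per library. Levels are given as CPM, counts scaled to a common library total, and changes as differences in log2 of CPM plus 1, which understates the change of genes at low levels. Of all genes, 14378 had enough counts to be tested by limma with the repeat as a term, and a gene is said to have risen or fallen only where its adjusted p was under 0.05. In repeats 1 and 2 the daf-2 transcript measured 42.6 and 188 CPM with the empty vector and 26.4 and 30.6 CPM on daf-2 RNAi, a log2 difference of -1.63 (SE 0.39, adjusted p = 0.03). The cav-1 transcript measured 178 and 184 CPM in empty vector worms against 6.13 and 1.84 CPM on cav-1 RNAi, a log2 difference of -5.34 (SE 0.33, adjusted p = 9.39e-05), and it also fell on daf-2 RNAi, to 42.7 and 21.2 CPM (-2.55, adjusted p = 0.00191). Markers of intestine, hypodermis, muscle, neurons, germline and embryo were measured as well, and 0 of the genes on any of these lists lacked counts in every library. The repeats differed from each other: 23.4% of all genes tested had every repeat 2 library above every repeat 1 library and 26.7% had every one below.

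In empty vector worms all steps of the pathway were represented. The genes together made up between 0.337% and 0.564% of the counts of a library. Of the 55 genes, 50 could be tested, and 33 of these exceeded 10 CPM in every library while 9 stayed below 10 CPM in every library. The 5 genes not tested were acs-18, with no count in any library, and acs-6, acs-10, acs-15 and acdh-8, whose highest total over the 6 libraries was 43 counts (acs-6). acs-6 ranged from 0.0781 to 0.484 CPM, acs-10 from 0 to 0.171 CPM, acs-15 from 0 to 0.117 CPM, and acdh-8 was counted in cav-1 RNAi repeat 1 alone, at 0.0592 CPM. The members lay on every autosome and on X, 8 of them on chromosome I, 13 on II, 7 on III, 8 on IV, 13 on V and 6 on X, and in the annotation of WBcel235 the longest transcript of each had 3 to 11 exons.

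Compared per kilobase of the longest annotated transcript, levels within each family spanned a wide range. Averaged over the groups, hacd-1 was the most abundant of all at 265 CPM per kb, followed by the acetyl-CoA synthetase gene acs-19 at 224 CPM per kb and acdh-3 at 217 CPM per kb. At the other end of the tested genes acdh-6 averaged 0.312 CPM per kb, acdh-5 0.461 CPM per kb, cpt-4 0.47 CPM per kb and acs-9 0.572 CPM per kb. In the carnitine shuttle the genes for the long-studied enzymes of the outer and inner mitochondrial membrane, cpt-1 and cpt-2, led with 90.5 and 54 CPM per kb, and the other four stood at 7.6 CPM per kb or less. Among hydratases ech-6, which also acts in propionate breakdown, stood at 179 CPM per kb and ech-7 at 139 CPM per kb. The mitochondrial thiolase gene kat-1 stood at 121 CPM per kb and the peroxisomal thiolase gene daf-22 at 40.0 CPM per kb.

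**Figure D1:**
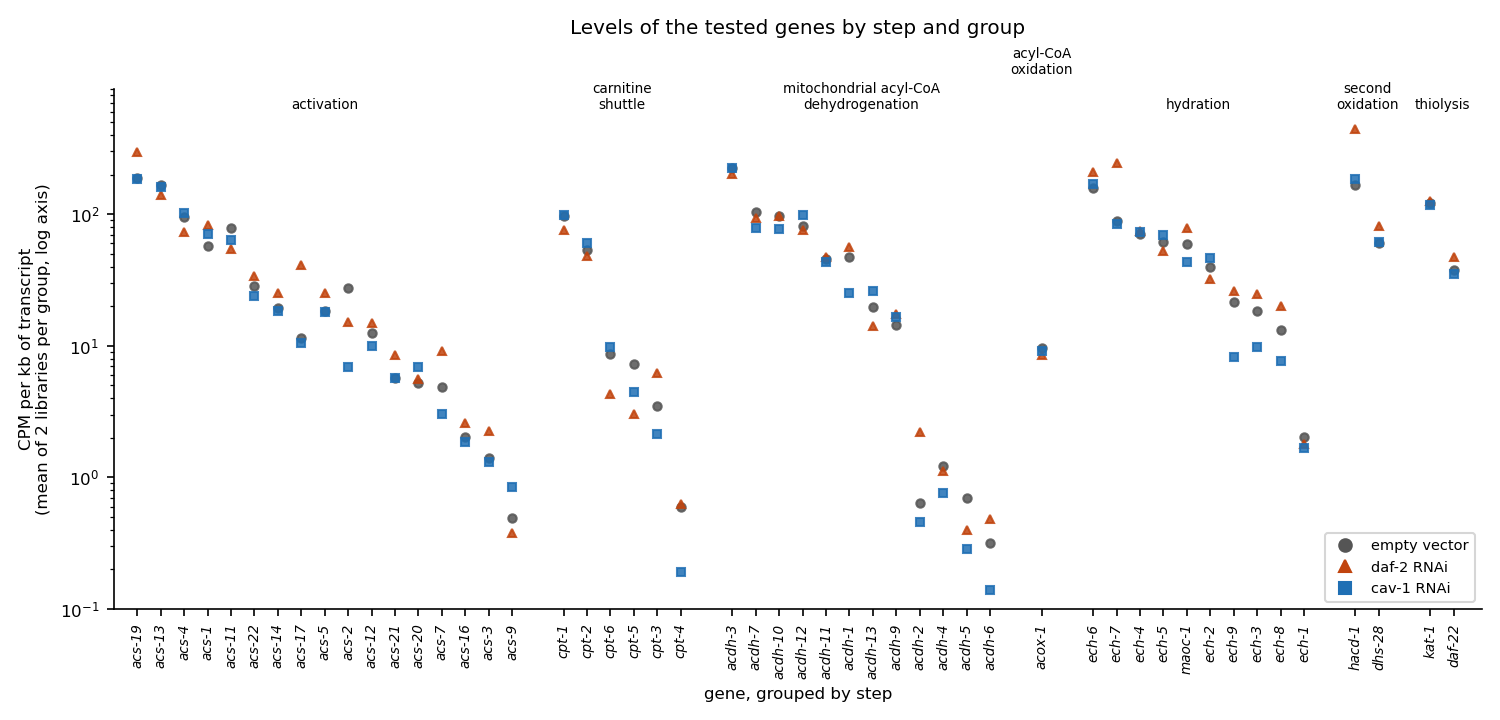
Level of each of the 50 tested genes in CPM per kb of transcript (log axis, vertical) by gene and step (horizontal), each point being the mean of the 2 libraries of a group. Levels within the acs, cpt, acdh and ech families spread widely, hacd-1 has the highest mean at 265 CPM per kb, and most genes have similar means in the 3 groups.

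The leading genes of each step gave the following values, always for repeats 1 and 2 in turn. acs-19 was at 238 and 651 CPM in empty vector worms, 584 and 804 CPM on daf-2 RNAi and 278 and 585 CPM on cav-1 RNAi. acs-13 was at 261 and 608 CPM, 211 and 508 CPM, and 270 and 563 CPM in the same order. For both genes repeat 2 was higher in every group and the groups overlapped. cpt-1 was at 191 and 350 CPM in empty vector worms, 139 and 287 CPM on daf-2 RNAi and 208 and 348 CPM on cav-1 RNAi. cpt-2 was at 67.0 and 163 CPM, 57.4 and 147 CPM, and 111 and 145 CPM. Again the groups overlapped. acdh-3 was at 443 and 237 CPM, 382 and 223 CPM, and 458 and 215 CPM, with the repeats in the opposite order. acdh-7 was at 99.4 and 181 CPM, 101 and 150 CPM, and 74.1 and 138 CPM. ech-6 was at 127 and 194 CPM, 166 and 260 CPM, and 154 and 190 CPM. For acdh-7 and ech-6 repeat 2 was the higher in every group. dhs-28 was at 59.8 and 110 CPM, 81.5 and 148 CPM, and 69.9 and 103 CPM, and kat-1 at 116 and 206 CPM, 132 and 201 CPM, and 124 and 186 CPM. None of these genes passed the limma test in any comparison. Their log2 differences under daf-2 RNAi against empty vector were 0.80 for acs-19 (adjusted p = 0.0943), -0.28 for acs-13, -0.37 for cpt-1, -0.18 for cpt-2, -0.15 for acdh-3, -0.13 for acdh-7, 0.40 for ech-6, 0.43 for dhs-28 and 0.07 for kat-1. Under cav-1 RNAi against empty vector they ran from -0.40 (acdh-7) to 0.28 (cpt-2). For cav-1 RNAi against daf-2 RNAi they ran from -0.76 (acs-19, adjusted p = 0.0729) to 0.46 (cpt-2).

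Under daf-2 RNAi 4 of the 50 tested genes rose and 1 fell against empty vector. acs-17, ech-7, hacd-1 and acdh-2 rose between 2.29-fold and 3.32-fold on the scale of CPM plus 1, and cpt-5 fell 2.22-fold. They came from 5 different steps: activation, hydration, the second oxidation, acyl-CoA dehydrogenation and the carnitine shuttle. The share that rose was 8.0% of the tested genes against a background of 4.31% of all genes tested, and the share that fell was 2.0% against 3.13%. The median log2 fold change was 0.09 over the 50 genes and -0.05 over all genes tested, and 30 of the 50 lay above 0, beside 6651 of the 14378.

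acs-17 (WBGene00016716), an acyl-CoA synthetase gene, lies on X at 5937506 to 5944510 on the minus strand. It stood at 28.9 and 36.4 CPM in empty vector worms, 76.8 and 157 CPM on daf-2 RNAi and 30 and 30.3 CPM on cav-1 RNAi. Both daf-2 RNAi libraries lay above all 4 others. The rise was 1.73 on the log2 scale (SE 0.28, adjusted p = 0.00527), and it was 1.38 within repeat 1 and 2.08 within repeat 2.

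ech-7 (WBGene00001156), an enoyl-CoA hydratase gene with the shortest transcript of the set at 774 nt, lies on chromosome I at 14367616 to 14369773 on the minus strand. It stood at 69.9 and 66.6 CPM in empty vector worms, 201 and 175 CPM on daf-2 RNAi and 73.1 and 58.1 CPM on cav-1 RNAi. Again both daf-2 RNAi libraries were above all the others, and here the repeats of each group were close. The rise was 1.44 (SE 0.22, adjusted p = 0.00405), and it was 1.51 and 1.38 within repeats 1 and 2.

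hacd-1 (WBGene00019978), a hydroxyacyl-CoA dehydrogenase gene, lies on V at 1460369 to 1461613 on the plus strand. It stood at 115 and 227 CPM in empty vector worms, 480 and 429 CPM on daf-2 RNAi and 172 and 205 CPM on cav-1 RNAi. The daf-2 RNAi libraries lay above all others, and the 2 empty vector libraries spanned both cav-1 RNAi libraries. The rise was 1.48 (SE 0.27, adjusted p = 0.0099), with 2.06 in repeat 1 and 0.91 in repeat 2. Without empty vector repeat 1 it was 1.02 (adjusted p = 0.0575) and without daf-2 RNAi repeat 1 it was 1.11 (adjusted p = 0.0783).

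acdh-2 (WBGene00015894), an acyl-CoA dehydrogenase gene, lies on II at 5544778 to 5547492 on the minus strand and was expressed at a low level. It stood at 1.33 and 1.03 CPM in empty vector worms, 2.84 and 5.45 CPM on daf-2 RNAi and 0.80 and 0.901 CPM on cav-1 RNAi. Here too the daf-2 RNAi libraries were the highest and overlapped with no other. The rise was 1.19 (SE 0.26, adjusted p = 0.0193), 0.72 in repeat 1 and 1.67 in repeat 2. It missed the threshold without empty vector repeat 2 (0.89, adjusted p = 0.0537), without daf-2 RNAi repeat 2 (0.92, adjusted p = 0.0684) or without cav-1 RNAi repeat 1 (1.22, adjusted p = 0.0554).

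cpt-5 (WBGene00008629), a predicted carnitine palmitoyltransferase gene, lies on V at 13873195 to 13875888 on the plus strand. It stood at 18.2 and 14.9 CPM in empty vector worms, 5.74 and 8.17 CPM on daf-2 RNAi and 8.71 and 11.6 CPM on cav-1 RNAi. Both empty vector libraries lay above all others. The log2 change with daf-2 RNAi came to -1.15 (SE 0.29, adjusted p = 0.0365), -1.51 and -0.79 within repeats 1 and 2. This call was the least stable: it was lost when libraries were scaled by their total counts (-1.07, adjusted p = 0.0502), under both other filters on low counts, and without empty vector repeat 1 (-0.80, adjusted p = 0.191), daf-2 RNAi repeat 1 (-0.94, adjusted p = 0.301), daf-2 RNAi repeat 2 (-1.15, adjusted p = 0.142) or cav-1 RNAi repeat 1 (-1.11, adjusted p = 0.0505).

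**Figure D2:**
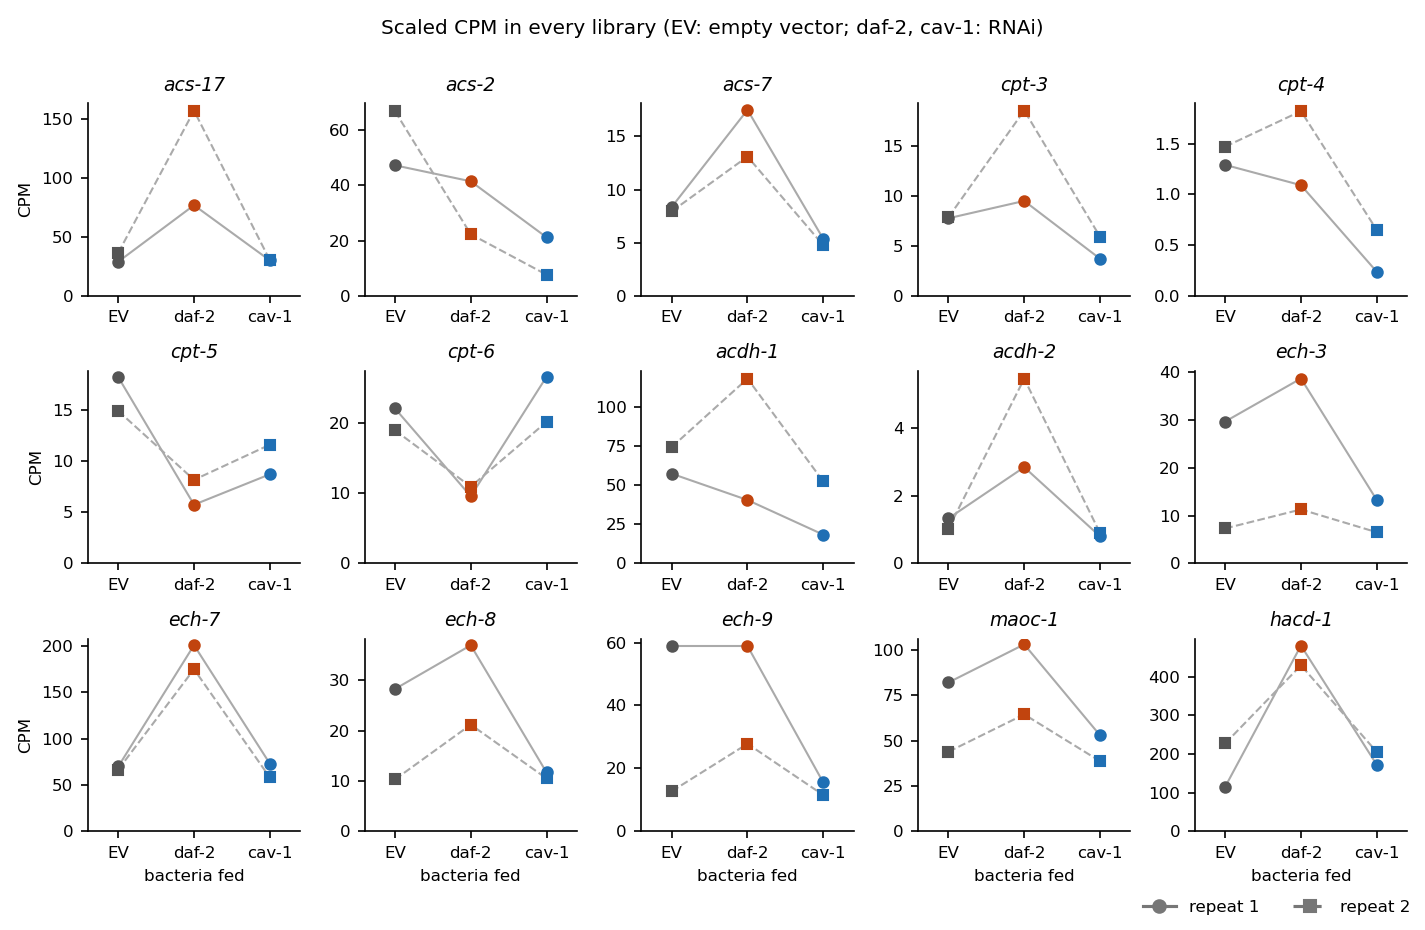
Scaled CPM (vertical, from 0) in each of the 6 libraries by group (horizontal) for the 14 genes that passed the test in any comparison and for acs-2, with lines joining libraries of the same repeat. acs-17, ech-7, hacd-1 and acdh-2 peak under daf-2 RNAi in both repeats, while ech-9 at 58.9 CPM in empty vector repeat 1 and 12.7 CPM in repeat 2 shows how far apart the repeats of a group could lie.

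The other genes of activation gave mixed directions under daf-2 RNAi, and none of them passed the test. acs-7, which acts in the modification of ascarosides, was at 8.36 and 7.95 CPM in empty vector worms and at 17.5 and 13.1 CPM on daf-2 RNAi, a difference of 0.82 with an adjusted p of 0.0954. acs-1, which is needed for monomethyl branched-chain fatty acids, differed by 0.61 (71.1 to 276 CPM over the libraries), acs-5 by 0.51 (22.3 to 62.2 CPM) and acs-21 by 0.53 (6.78 to 16.6 CPM). acs-2, a mitochondrial synthetase gene known to be induced by fasting through NHR-49, differed by -0.86 (adjusted p = 0.198), acs-11 by -0.46 (81.3 to 173 CPM) and acs-4 by -0.41 (94.6 to 436 CPM). The remaining genes lay nearer 0: acs-14 (26.7 to 46.9 CPM), acs-12 (17.1 to 27 CPM), acs-16 (2.45 to 5.91 CPM), acs-3 (0.376 to 9.01 CPM), acs-9 (0.545 to 2.13 CPM) and the fatty acid transport protein relatives acs-20 (8.72 to 18.9 CPM) and acs-22 (52.2 to 95.1 CPM). In all, 12 of 17 tested acs genes lay above 0, with a median of 0.26.

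In the carnitine shuttle 4 of 6 genes lay below 0 under daf-2 RNAi and the median was -0.28. cpt-6, a predicted member, was at 22 and 18.9 CPM in empty vector worms, 9.54 and 10.9 CPM on daf-2 RNAi and 26.5 and 20.1 CPM on cav-1 RNAi. Both daf-2 RNAi libraries were below all others, and the difference of -0.93 had an adjusted p of 0.0619. With voom weights limma called cpt-6 lower too, for 6 genes of the set in all. In the authors' deposited table cpt-5 and cpt-6 were both lower under daf-2 RNAi and 4 genes of the set were higher, against backgrounds of 4.58% and 4.97% of the genes with an adjusted p in that table. cpt-3 differed by 0.70 (3.70 to 18.5 CPM over the libraries) and cpt-4 by 0.03 (0.237 to 1.82 CPM).

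Among the mitochondrial acyl-CoA dehydrogenase genes, those other than acdh-2 lay between -0.47 and 0.27 under daf-2 RNAi. acdh-13 (27.5 to 69.5 CPM) marked the low end and acdh-9 (14.5 to 29.0 CPM) the high end. acdh-11, whose product keeps the desaturase gene fat-7 in check, ranged from 63.8 to 113 CPM and differed by 0.10. acdh-10 ranged from 85.9 to 162 CPM, acdh-12 from 114 to 214 CPM, acdh-4 from 0.484 to 2.62 CPM, acdh-5 from 0.144 to 1.68 CPM and acdh-6 from 0.118 to 0.666 CPM. acdh-1, the vitamin B12-responsive enzyme gene of the propionate shunt, moved in opposite directions in the repeats, by -0.49 and 0.66.

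The peroxisomal genes that act in succession on ascaroside side chains (acox-1, maoc-1, dhs-28 and daf-22) did not pass the test under daf-2 RNAi, with differences of -0.16, 0.44, 0.43 and 0.34. acox-1 was at 16.3 and 32.2 CPM in empty vector worms, 14.6 and 28.3 CPM on daf-2 RNAi and 13 and 33.1 CPM on cav-1 RNAi. daf-22 was at 38.1 and 62.5 CPM, 50.8 and 75.6 CPM, and 35.5 and 57.5 CPM. For both genes every repeat 2 library exceeded every repeat 1 library whatever the treatment. At an unadjusted p under 0.05 none of these 4 genes passed, nor did any by the voom variant of limma. Of the acyl-CoA oxidase genes left out by the choice of symbol, F08A8.2 (acox-1.2) fell under daf-2 RNAi (-1.46, limma adjusted p = 0.014) and the others did not pass. Of the other hydratase genes ech-1 (now ech-1.1), a trifunctional protein alpha subunit gene, ranged from 1.47 to 7.66 CPM, ech-2 from 29.6 to 69.3 CPM, ech-4 from 61.6 to 121 CPM and ech-5 from 59.9 to 142 CPM, with differences from -0.27 to 0.09. The close kin of ech-1, T08B2.7 (ech-1.2), lies outside the set and averaged 96.9 CPM per kb against 1.83 CPM per kb for ech-1.

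**Figure D3:**
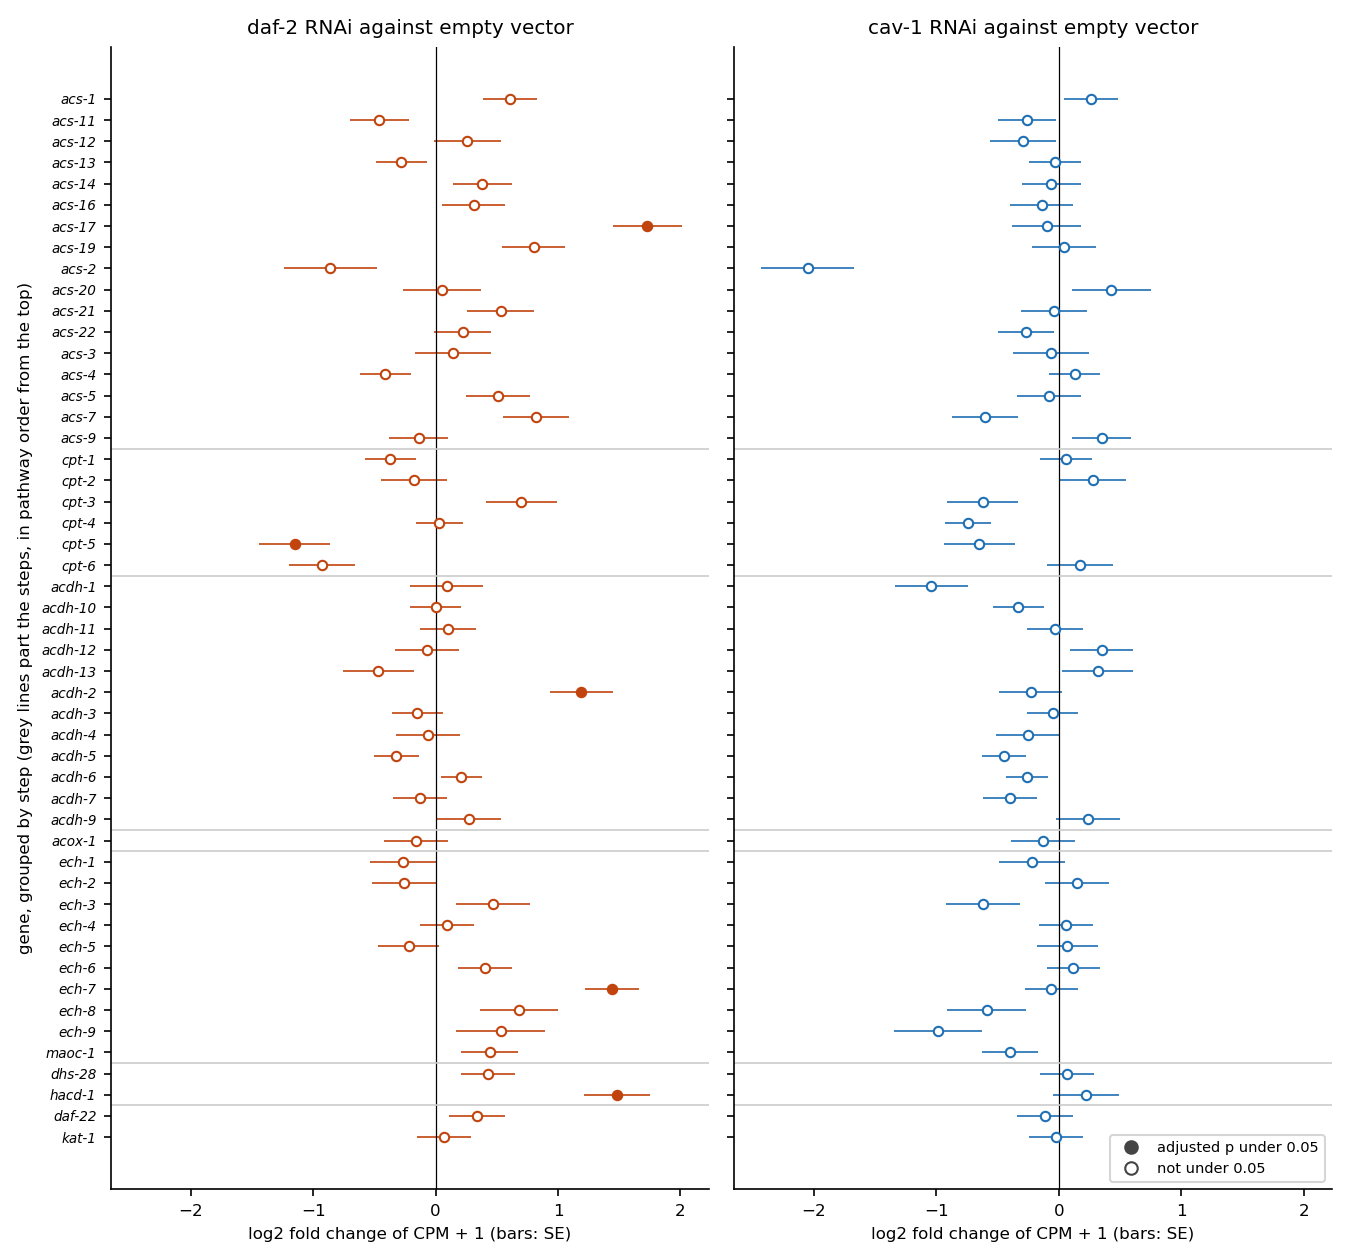
Log2 fold change of CPM plus 1 (horizontal, bars give the SE) for each of the 50 tested genes (vertical, by step) for each RNAi against empty vector. Filled points passed an adjusted p of 0.05, which 5 genes did on the left and 0 on the right, and acs-2 at -2.05 is the point farthest from 0.

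The test under daf-2 RNAi rested on the repeat as a term. Without it, limma called 0 of all 14378 genes in each of the 3 comparisons, and the 5 genes had adjusted p between 0.636 and 0.924. In whole worms fewer cells of a type and less RNA per cell cannot be told apart, and markers moved beside these genes. The shares to set beside the marker calls are the 4.31% of all genes tested that rose and the 3.13% that fell. Of 10 intestinal markers, ges-1 was higher under daf-2 RNAi (1.56, adjusted p = 0.00394) while pept-1 (-1.69) and mtl-2 (-0.93) were lower, and the summed markers ran from 1270 to 2460 CPM in empty vector, 1240 to 1930 CPM in daf-2 RNAi and 948 to 2210 CPM in cav-1 RNAi libraries. Of 7 hypodermal markers, 5 could be tested: col-19 (0.93) and grd-10 (1.66) were higher, elt-3 stood at 0.84, and dpy-7 (-0.45) and elt-1 (-0.28) lay below 0 in both repeats, with sums over the list of 543 to 575 CPM, 891 to 1270 CPM and 469 to 761 CPM. All 10 germline and oocyte markers lay below 0 (median -0.51) and 0 passed the limma test, with 4 at an unadjusted p under 0.05 and 0 called with voom weights. Of 7 embryonic markers, 5 could be tested and 4 fell, all at low levels. Summed over the list they came to 32.8 and 14.7 CPM in empty vector worms and 11.2 and 1.82 CPM on daf-2 RNAi. On cav-1 RNAi the sums were 20.1 and 16.1 CPM. Among those that fell, tbx-37 and tbx-38 did not exceed 1.07 CPM in any library. All 7 body wall muscle markers lay above 0 (median 0.51), of which 0 passed and 5 had an unadjusted p under 0.05, also with 0 called by voom. All 3 pharynx markers lay above 0 (median 1.09), and myo-1, a pharyngeal myosin gene, passed (1.15, adjusted p = 0.0339) but 0 of the 3 did with voom weights. The repeats of each group lay far apart for these markers. Their sums in repeats 1 and 2 were 5.63 and 108 CPM in empty vector worms and 17.2 and 189 CPM on daf-2 RNAi. On cav-1 RNAi they were 4.89 and 123 CPM. Of 8 neuronal markers 7 lay above 0 (median 0.53), of which 0 passed by either form and 3 had an unadjusted p under 0.05. Their part in the changes above was not tested.

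Under cav-1 RNAi against empty vector 0 of the 50 tested genes passed the limma test, by the voom variant too, and 7 had an unadjusted p under 0.05. Over all genes tested the share called was 0.00696%, which is cav-1 itself. The median log2 difference was -0.07 over the 50 genes and -0.01 over all genes, and 33 of the 50 lay below 0, beside 7527 of the 14378. Within the repeats, 20 genes lay below 0 in both, 5 above 0 in both and 25 in opposite directions, where the counts over the 14378 genes were 3471, 2986 and 7921.

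The gene farthest from 0 was acs-2 (WBGene00009221; V, 15567394 to 15569897, plus strand). It stood at 47.3 and 66.9 CPM in empty vector worms, 41.5 and 22.3 CPM on daf-2 RNAi and 21.2 and 7.64 CPM on cav-1 RNAi. Both empty vector libraries lay above both cav-1 RNAi libraries, and the daf-2 RNAi libraries lay between them. The log2 difference was -2.05 (SE 0.38, adjusted p = 0.16), -1.12 in repeat 1 and -2.97 in repeat 2. Without empty vector repeat 1 that difference was -2.85, and without cav-1 RNAi repeat 2 it was -1.53. Without daf-2 RNAi repeat 1 or repeat 2 it was -2.04. Calls gained in such fits, which have 1 residual degree of freedom, are no sign of strength. In the authors' deposited table acs-2 was the only one of these genes with an adjusted p under 0.05 in this comparison, with a log2 fold change of -1.76 and an adjusted p of 0.00011, where 0.57% of genes passed.

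Differences of about 1 on the log2 scale were also seen for acdh-1 and ech-9. acdh-1 was at 57.3 and 74.3 CPM in empty vector worms and 18.4 and 52.4 CPM on cav-1 RNAi, a difference of -1.04 (SE 0.30, adjusted p = 0.677) that was -1.59 in repeat 1 and -0.50 in repeat 2. ech-9 was at 58.9 and 12.7 CPM in empty vector worms and 15.5 and 11.5 CPM on cav-1 RNAi, a difference of -0.99 (SE 0.36, adjusted p = 0.977) that was -1.86 in repeat 1 and -0.13 in repeat 2. Without empty vector repeat 2 the differences were -1.60 for acdh-1 and -1.70 for ech-9. Without cav-1 RNAi repeat 2 they were -1.37 for acdh-1 and -1.66 for ech-9. For ech-9 the groups overlapped, since empty vector repeat 2 lay below cav-1 RNAi repeat 1, and for acdh-1 they did not. In the carnitine shuttle cpt-4 was farthest from 0 (-0.74, SE 0.19, adjusted p = 0.512), at 1.29 and 1.47 CPM in empty vector worms against 0.237 and 0.649 CPM. cpt-5 differed by -0.65 and cpt-3 by -0.62, while cpt-1, cpt-2 and cpt-6 lay between 0.06 and 0.28. In the last steps hacd-1 differed by 0.22 (0.58 in repeat 1, -0.15 in repeat 2), acox-1 by -0.13 and daf-22 by -0.11.

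Set against each other, the RNAi treatments differed at 13 of the 50 tested genes, of which 12 were lower and 1 higher under cav-1 RNAi than under daf-2 RNAi. The 12 were 24.0% of the tested genes, against a background of 6.87% of all genes tested that were lower, and the 1 was 2.0% against 3.74% higher. The median log2 difference was -0.31 over the 50 genes and -0.01 over all genes. Steps were assigned by gene symbol alone. Of the 10 genes so placed at hydration, 5 were lower (ech-3, ech-7, ech-8, ech-9 and maoc-1). Also lower were 2 of 17 tested synthetase genes (acs-7 and acs-17), 2 of 6 carnitine palmitoyltransferase genes (cpt-3 and cpt-4), 2 of 12 tested acyl-CoA dehydrogenase genes (acdh-1 and acdh-2) and hacd-1, and cpt-6 was higher. This comparison shares its libraries with the others, so each gene's own values are given.

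The genes that rose under daf-2 RNAi stood lower under cav-1 RNAi by 1.27 to 1.83. They were picked for high daf-2 RNAi libraries, which this comparison uses again, so it is no separate test of them. The difference was -1.83 for acs-17 (SE 0.28, adjusted p = 0.00362), -1.51 for ech-7 (SE 0.22, adjusted p = 0.00313), -1.43 for acdh-2 (SE 0.26, adjusted p = 0.00732) and -1.27 for hacd-1 (SE 0.27, adjusted p = 0.0173). For each of them both daf-2 RNAi libraries exceeded both cav-1 RNAi libraries, as the values above show, and the cav-1 RNAi libraries were near the empty vector ones, with log2 differences from -0.23 to 0.22.

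Among the genes placed at hydration, ech-8 and ech-9 are neighbours on chromosome IV, on the minus strand and 1297 bases apart. Of the pair, ech-9 lies at 10233310 to 10235329 and ech-8, upstream on this strand, at 10236626 to 10239176. ech-9 was at 58.9 and 27.8 CPM on daf-2 RNAi and at 15.5 and 11.5 CPM on cav-1 RNAi, a difference of -1.53 (SE 0.36, adjusted p = 0.0258). ech-8 was at 28.3 and 10.3 CPM in empty vector worms, 37 and 21.2 CPM on daf-2 RNAi and 11.7 and 10.5 CPM on cav-1 RNAi, a difference of -1.26 (SE 0.32, adjusted p = 0.0317). For both, the treatments did not overlap, but the 2 empty vector libraries lay far apart. ech-3 (V, 8022217 to 8023317, plus strand) was at 29.7 and 7.33 CPM, 38.7 and 11.3 CPM, and 13.3 and 6.53 CPM, so that the treatments overlapped across repeats and differed within each, by -1.48 and -0.71 (pooled -1.09, SE 0.30, adjusted p = 0.0434). maoc-1, the peroxisomal hydratase gene (II, 7196276 to 7197495, plus strand), was at 82.0 and 43.8 CPM, 103 and 64.4 CPM, and 52.9 and 38.6 CPM, a difference of -0.84 (SE 0.23, adjusted p = 0.0455). Of the genes at neighbouring peroxisomal steps, acox-1 (0.03), dhs-28 (-0.36) and daf-22 (-0.45) did not pass the test. The set holds only 1 of the acyl-CoA oxidase genes. Of those left out by the choice of symbol, F08A8.2 (acox-1.2) was higher under cav-1 RNAi (1.23, limma adjusted p = 0.0256). F58F9.7 (acox-3) was lower (-1.0, limma adjusted p = 0.0336), and the others did not pass.

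In the other steps acs-7 (II, 9292017 to 9294033, plus strand) stood at 17.5 and 13.1 CPM on daf-2 RNAi and at 5.36 and 4.76 CPM on cav-1 RNAi, without overlap and with the empty vector libraries between them. Its difference was -1.42 (SE 0.27, adjusted p = 0.00894), -1.54 and -1.29 within the repeats. cpt-3 (III, 2082819 to 2088314, plus strand) was at 7.74 and 7.84 CPM in empty vector worms, 9.47 and 18.5 CPM on daf-2 RNAi and 3.70 and 5.91 CPM on cav-1 RNAi, a difference of -1.33 (SE 0.29, adjusted p = 0.0193). cpt-4 (V, 5023706 to 5027723, minus strand) was at 1.09 and 1.82 CPM on daf-2 RNAi and 0.237 and 0.649 CPM on cav-1 RNAi. That difference of -0.77 (SE 0.19, limma adjusted p = 0.0327) rests on only 8 and 18 counts in the cav-1 RNAi libraries. In the authors' deposited table its DESeq2 adjusted p was 0.0557. acdh-1 (I, 6497436 to 6499560, plus strand) was at 40.5 and 118 CPM on daf-2 RNAi and 18.4 and 52.4 CPM on cav-1 RNAi, which overlapped across repeats but gave -1.10 and -1.16 within them (pooled -1.13, SE 0.30, adjusted p = 0.0396). cpt-6 (V, 6490086 to 6493921, minus strand), with the values given above, was higher under cav-1 RNAi in both libraries, by 1.11 (SE 0.27, adjusted p = 0.0282). acs-2 differed by -1.18 (SE 0.38) and did not pass the test (adjusted p = 0.0653).

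**Figure D4:**
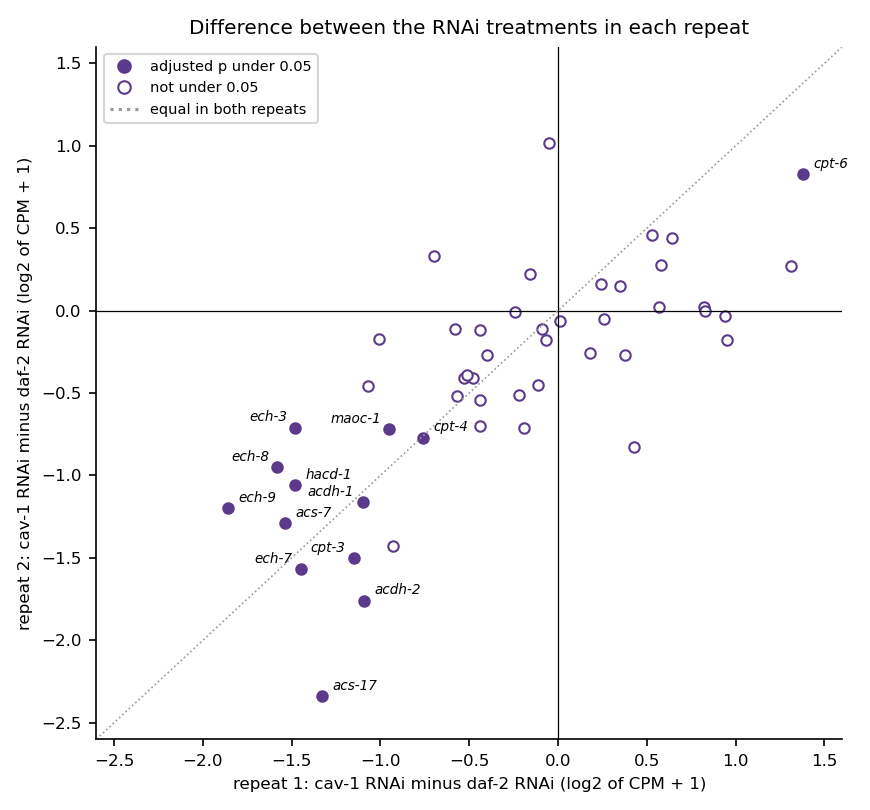
Log2 difference between cav-1 RNAi and daf-2 RNAi for each of the 50 tested genes in repeat 1 (horizontal) and in repeat 2 (vertical), with filled points for the 13 genes that passed the test. The 12 genes called lower lie below 0 in both repeats, from acs-17 at -1.33 and -2.34 to cpt-4 at -0.76 and -0.77, and cpt-6 lies above 0 in both, at 1.38 and 0.83.

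Most of these calls were lost in at least 1 fit that left out a library. The losses came without cav-1 RNAi repeat 1, daf-2 RNAi repeat 1 or daf-2 RNAi repeat 2. Leaving out either empty vector library or cav-1 RNAi repeat 2 ended none of them. Such fits have 1 residual degree of freedom, so a call kept there is no sign of strength. Without cav-1 RNAi repeat 1, a fit in which 61 genes were called in all, acs-17 and ech-7 were the 2 genes of the set that remained called, and the others had adjusted p from 0.109 to 0.228, with log2 differences from -1.54 (acdh-2) to -0.68 (ech-3 and maoc-1) for those lower and 0.91 for cpt-6. Without daf-2 RNAi repeat 1, acs-7 (-1.28, adjusted p = 0.0619), cpt-4, cpt-6, ech-3, ech-8, hacd-1 and maoc-1 missed the threshold (adjusted p up to 0.318), with log2 differences from -1.28 to -0.84 for those lower and 0.87 for cpt-6. Without daf-2 RNAi repeat 2, acdh-1 (-1.02, adjusted p = 0.161), cpt-3 (-1.19, adjusted p = 0.0783), cpt-4 (-0.77), cpt-6 (1.15) and maoc-1 (-1.04) missed it. With no filter on low counts cpt-3 (-1.29, adjusted p = 0.0514), ech-3 (-1.06, adjusted p = 0.0791), ech-8 (-1.23, adjusted p = 0.0543), hacd-1 (-1.23, adjusted p = 0.0611) and maoc-1 (-0.80, adjusted p = 0.0686) missed it, and with a pseudocount of 2 so did ech-3 (adjusted p = 0.0509). In the authors' deposited table, 12 of 49 genes of the set with an adjusted p were lower under cav-1 RNAi than under daf-2 RNAi and 3 were higher, against 9.11% and 16.8% of all genes with one.

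Markers also differed between the RNAi treatments, where 3.74% of all genes tested were called higher under cav-1 RNAi and 6.87% lower. All 7 body wall muscle markers lay lower with cav-1 RNAi (median -0.72, unc-15 called, 4 with voom weights), as did all 3 pharynx markers (myo-1 and myo-2 called, 0 with voom weights). Of 8 neuronal markers 7 lay lower (median -0.49, snt-1 called at -1.08, 2 with voom weights). Of the 5 tested hypodermal markers col-19 (-0.84) and grd-10 (-1.18) were called lower, and 2 lay above 0. By contrast, 4 of 5 tested embryonic markers were called higher, at the low levels given above. All 10 germline and oocyte markers lay higher (median 0.6), of which 0 passed by either form of limma and 8 had an unadjusted p under 0.05. The intestinal markers split, with pept-1 (2.03) and mtl-2 (0.92) higher and ges-1 (-1.55) lower. The part of these differences in the values of the pathway genes was not tested.

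Genes that act around the pathway were described from lists. Of 11 regulators of fat oxidation (nhr-49, nhr-13, nhr-66, nhr-80, nhr-79, mdt-15, hlh-30, sbp-1, daf-16, klf-3 and aak-2), 0 passed the limma test under daf-2 RNAi, with 1 at an unadjusted p under 0.05 and a median of 0.32. The largest difference was that of nhr-80, a nuclear receptor gene that controls fatty acid desaturases, at 0.65 (adjusted p = 0.175). nhr-66, another nuclear receptor gene, was higher under cav-1 RNAi than under daf-2 RNAi, at 63.1 and 136 CPM against 29.5 and 88.8 CPM (0.84, adjusted p = 0.0447). For nhr-66 the treatments overlapped across repeats and differed within each, by 1.07 and 0.6. This 1 of 11 is 9.09% of the list, against 3.74% of all genes tested that were higher. nhr-49, which drives acs-2 on fasting, was at 78.0 and 111 CPM in empty vector worms, 97.9 and 150 CPM on daf-2 RNAi and 146 and 125 CPM on cav-1 RNAi, and passed no test.

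Of 9 genes of propionate breakdown other than acdh-1 and ech-6, 0 passed under daf-2 RNAi, with 2 at an unadjusted p under 0.05 and a median of 0.36, the largest difference being that of the regulator nhr-68 at 0.78 (adjusted p = 0.191). Between the treatments alh-8, the methylmalonate semialdehyde dehydrogenase gene, was lower under cav-1 RNAi, at 708 and 672 CPM against 1400 and 1070 CPM (-0.83, adjusted p = 0.0371). mce-1, the methylmalonyl-CoA epimerase gene, was also lower, at 166 and 73.2 CPM against 277 and 136 CPM (-0.81, adjusted p = 0.0434). For mce-1 the treatments overlapped across repeats and differed within each, by -0.73 and -0.89. The 2 genes called lower are 22.2% of the list, against 6.87% of all genes tested. Under cav-1 RNAi against empty vector 0 of these 9 and 0 of the 11 regulators passed, 0 of them at an unadjusted p under 0.05. With voom weights the counts of 0 on these lists were 0 as well.

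Of 17 genes of peroxisome import and transport, pmp-5, a peroxisomal ABC transporter gene, rose under daf-2 RNAi. It stood at 22.3 and 23.3 CPM in empty vector worms, 68.1 and 59.9 CPM on daf-2 RNAi and 24.1 and 27.4 CPM on cav-1 RNAi (1.45, SE 0.24, adjusted p = 0.00665). This 1 of 17 is 5.88% of the list against 4.31% of all genes tested, and the list had a median of 0.42 in that comparison. Between the treatments 4 of 17, or 23.5% against 6.87% of all genes, were lower under cav-1 RNAi: the peroxisomal catalase gene ctl-2 (-1.93, adjusted p = 0.00192), pmp-2 (-1.42, adjusted p = 0.034), pmp-5 (-1.28, adjusted p = 0.00953) and the peroxin gene prx-2 (-1.19, adjusted p = 0.033). ctl-2 stood at 154 and 139 CPM on daf-2 RNAi and at 30.2 and 47.0 CPM on cav-1 RNAi, with empty vector worms between at 71.2 and 104 CPM. Under cav-1 RNAi against empty vector 0 of the 17 passed, also with voom weights, and 1 had an unadjusted p under 0.05.

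The repeats also differed within the set, and the difference moved with transcript length. In 19 of the 50 genes all 3 repeat 2 libraries lay above all 3 repeat 1 libraries, and in 8 all lay below, beside 23.4% and 26.7% of all genes tested. The median difference of repeat 2 over repeat 1 was 0.38 on the log2 scale over the 50 genes and -0.13 over all genes. Transcripts of the members ranged from 774 to 2871 nt, with a median of 1759 nt against 1342 nt for all genes tested. Of 14 members with transcripts over 2200 nt, 7 were above in all repeat 2 libraries and 0 below, with a median of 0.74, whereas of 6 members under 1100 nt, 1 was above and 2 below, with a median of -0.43. Over the 50 genes the rank correlation of the difference with length was 0.428 (Spearman, a description over genes measured in the same 6 libraries). With the length trend of each library removed, limma called 5, 0 and 14 genes of the set in the 3 comparisons, close to the 5, 0 and 13 without that step. acs-3 had the widest gap upward, 2.04, at 0.899 and 5.01 CPM in empty vector worms, and ech-3 the widest downward, -1.50.

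**Figure D5:**
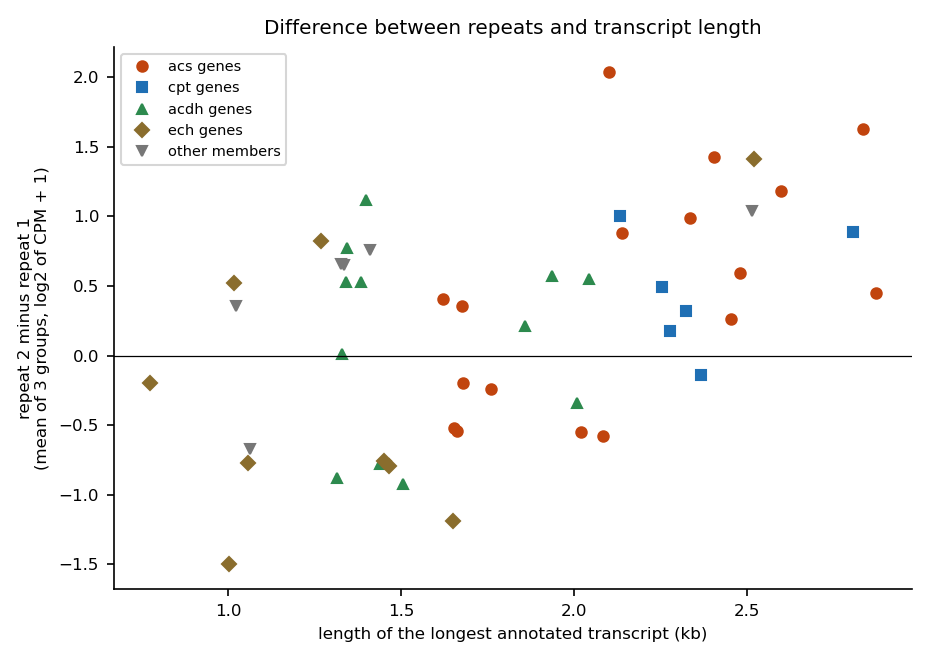
Difference between repeats (vertical, mean of the 3 groups, log2 of CPM plus 1) against the length of the longest annotated transcript (horizontal, kb) for the 50 tested genes, marked by family. The longest transcripts lie mostly above 0, among them acs-4 at 1.63, and the ech genes reach both 1.41 (ech-1) and -1.50 (ech-3).

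In the annotation 20 of the 55 genes share exon bases with another gene, 15 of them with a gene on the opposite strand. Among the genes called, acs-17 shares 109 bases with C46F4.3 on the opposite strand, ech-3 123 bases with F43H9.3, maoc-1 105 bases with E04F6.6 and ech-8 55 bases with linc-119, and acdh-2 shares 87 bases with ins-13 on its own strand. Shorter overlaps of 9 bases with C01G6.9 (acs-7), 21 bases with a piRNA (cpt-6) and 6 bases with a pseudogene (ech-9) also touch called genes. How reads were assigned there, and whether the strand was used, is not given in the sources used here, so these counts may include reads of the partner.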

How the data were processed

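Counts per gene came from 1 table deposited by the authors, headed as raw counts for each of the 6 libraries. Of its 46748 rows, 494 (1.06%) held no value and were left out, which is why the columns failed a check of their format as counts and no count model was fitted. The submitters' processing notes name TopHat2 2.0.13 and Cufflinks 2.2.1, bcl2fastq 2.15.0.4 with cutadapt 1.7.1, build WBcel235 and DESeq2 1.10.1. Not given in the sources used here are the counting program, strand mode, annotation release and handling of shared reads. Log2 fold changes and adjusted p-values deposited by the authors were read for their own comparisons, and the 6 columns of values the authors normalised were not used.

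Libraries were scaled by TMM (30% of log ratios and 5% of levels trimmed; factors 0.922 to 1.04), and genes were kept with at least 0.348 CPM (10 counts in a library of median size) in 2 or more libraries and 15 or more counts altogether. At 10 counts, counting error alone is large. log2(CPM + 1) was fitted by limma-trend (R 4.3.3, limma 3.58.1) over all 6 libraries with the repeat as an additive term (2 residual degrees of freedom, prior 8.69). Tests were 2-sided, adjusted by Benjamini-Hochberg within a comparison over 14378 genes, with a threshold of 0.05. The script was tested on simulated data.

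The repeats pair the libraries by the series' design text. Deviations from group means of same-numbered libraries correlated at 0.891 (empty vector with daf-2 RNAi), 0.807 (empty vector with cav-1 RNAi) and 0.812 (daf-2 RNAi with cav-1 RNAi). Libraries of a group differed by more than counting error (chi-square per degree of freedom 414 to 567). What a repeat shared beyond its number is not stated. With the repeat as a term, p-values measure the spread left between these libraries once the difference between repeats is removed.

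Members, lists and tests were chosen with earlier results of these data known. Genes named with full values were those called in any comparison, the 2 with the highest CPM per kb in each step, and the one with the largest change in each step and comparison, and in the other lists those called or, where none was, the largest change. nhr-49, acs-3 and the values quoted for further genes were added after their values were seen. Coordinates, exons and transcript lengths came from the Ensembl 115 annotation of WBcel235. Alternatives covered scaling, filters, pseudocounts, the repeat term, transcript length, voom weights and leaving out each library.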

Additional observations from a re-analysis of the deposited data

How the results depend on the processing

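Counts of calls moved as follows. Without the replicate block, the count of called genes was 0 in the 3 comparisons, for the set and for all genes. For daf-2 RNAi against empty vector, all genes called went from 1070 to 583 with at least 5 CPM required and to between 665 and 2212 when single libraries were left out, and genes of the set from 5 to 3 and to between 3 and 8. For cav-1 RNAi against empty vector, all genes called went from 1 to 6 with median-of-ratios size factors, 2 with a pseudocount of 0.5, 2 with voom weights and between 0 and 399 without single libraries, and genes of the set from 0 to between 0 and 3. For cav-1 RNAi against daf-2 RNAi, all genes called went from 1526 to 3097 with size factors, which also turned the split of 538 higher and 988 lower into 1906 higher and 1191 lower (2 and 12 in the set), and to between 61 and 4235 without single libraries; genes of the set went from 13 to between 2 and 18. Directions turned only near 0: acox-1 under daf-2 RNAi without daf-2 RNAi repeat 2 (0.14), under cav-1 RNAi without cav-1 RNAi repeat 1 (0.07), and between treatments with the stricter filter (-0.07), the length trend removed (-0.16), without daf-2 RNAi repeat 2 (-0.26) or without cav-1 RNAi repeat 2 (-0.22), and hacd-1 under cav-1 RNAi without empty vector repeat 1 (-0.25). Over all fits without a library, acox-1 ran from -0.25 to 0.14, -0.39 to 0.07 and -0.26 to 0.2 in the 3 comparisons, and hacd-1 under cav-1 RNAi from -0.25 to 0.68. The causes were not tested. Of the other values for genes named with full statistics, 357 kept direction and call, 59 lost the call and 8 gained it. Fits without a library have 1 residual degree of freedom and can call more genes than the full fit, so a gain there is no sign of strength. The count-model refit was not run, for the reason given with the processing. At 2 libraries a group, differences such as -2.05 for acs-2 did not reach the threshold, so a gene that missed it is not shown to be unchanged.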

Other observations

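The annotation places 8 further genes of these families under sequence names in the deposited table, which the choice by symbol left out. Among them are 6 acyl-CoA oxidase genes, so the single acox gene above is not the whole family. F08A8.2, now acox-1.2, adjoins acox-1 on chromosome I, 53 bases downstream on the plus strand. It stood at 18.9 and 38.1 CPM in empty vector worms, 8.27 and 10.0 CPM on daf-2 RNAi and 15 and 34.5 CPM on cav-1 RNAi. Both daf-2 RNAi libraries were below all others, and the gene fell by 1.46 (log2, SE 0.29, limma adjusted p = 0.014), -1.10 in repeat 1 and -1.82 in repeat 2. It was higher under cav-1 RNAi than under daf-2 RNAi by 1.23 (adjusted p = 0.0256). Its neighbours did not pass: acox-1 differed by -0.16 under daf-2 RNAi, F08A8.3 (acox-1.3) stayed at or below 0.721 CPM, and F08A8.4 (acox-1.4) differed by 0.34.

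F58F9.7, now acox-3, stood at 91.5 and 56.4 CPM in empty vector worms, 113 and 77.6 CPM on daf-2 RNAi and 44.9 and 47.8 CPM on cav-1 RNAi, and was lower under cav-1 RNAi than under daf-2 RNAi (-1.0, SE 0.25, adjusted p = 0.0336). C48B4.1 (acox-1.5) differed by -0.98 in that comparison (adjusted p = 0.0847) and F59F4.1 (acox-1.6) by -0.81 (adjusted p = 0.0667). T08B2.7 (ech-1.2), close kin of ech-1, averaged 96.9 CPM per kb against 1.83 CPM per kb for ech-1 and differed from empty vector by 0.17 (daf-2 RNAi) and 0.19 (cav-1 RNAi). C32E8.6 (acs-24) had 24 counts in all and was not tested. Without the repeat as a term none of these genes was called, and how reads shared between similar copies were counted is unknown.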
